A study of Mus musculus with 3 samples.

Results

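Basic helix-loop-helix (bHLH) transcription factors were examined for Isl1 occupancy in cardiac progenitor cells (CPCs). The set comprised 42 genes, of which 16 act in mesoderm, heart or skeletal muscle, 18 act in neurons or related lineages, and 8 belong to neither class. The members were chosen by symbol from the gene family, with earlier results of these data known. A member counted as having an assigned peak when the deposited Isl1 peak list named it. Of the 14082 distinct peaks in the list, 41 were assigned to 28 of the 42 genes, and the other 14 genes had no assigned peak. Background shares were taken over 21031 protein-coding genes.

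The chromatin came from CPCs made from E14 Tg(Nkx2-5-EmGFP) mouse embryonic stem cells (ESCs), a transgenic reporter line for the early cardiac gene Nkx2-5, by directed cardiac differentiation in aggregates with BMP4, Activin A and VEGF and then in a monolayer with VEGF, bFGF and FGF10, and was taken at day 5. Chromatin immunoprecipitation followed by sequencing (ChIP-Seq) was performed with an Isl1 antibody in 2 replicates, beside 1 input sample of chromatin that was not pulled down. The cells were of 1 line and 1 genotype, so no condition was compared, and whether the replicates came from separate differentiations was not stated. The single list combined both replicates and gave positions on the mm9 assembly without a score, read number or replicate value. The depth behind each peak is therefore unknown, no replicate error can be given, and a gene without an assigned peak cannot be called unbound. The intervals given with shares are 95% Wilson intervals, which cover counting error only. No list of marker transcripts was measured, so the identity of the cells could not be checked here.

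bHLH proteins bind DNA as dimers through a basic region, at the hexamer CANNTG known as the E-box. Tissue-specific members such as Myod1, Hand2 or Neurog2 usually pair with a broadly expressed E protein, and the Id proteins, which lack the basic region, take E proteins out of these pairs. Mesp1 marks the earliest cardiac mesoderm, Hand1 and Hand2 act in the growing ventricles and outflow tract, and the proneural factors turn neural progenitors into neurons. Isl1 is a LIM-homeodomain factor of second heart field progenitors and also of motor and sensory neurons, and homeodomains bind cores such as TAAT.

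The central 200 bp of 6 peaks are shown as examples of the sequence under these peaks, coding and intronic. They are read from the reference mm9 genome on the strand of the gene, 5′ to 3′, and capitals mark each CG dinucleotide. Of 24 single-copy member peaks within 10 kb of a transcription start site (TSS), 9 had a centre that touched an annotated untranslated region (UTR) and are not shown. From the others, 4 mesodermal windows are shown, among them a Scx and a Tal1 window more than 1 kb from the TSS, and the 2 neural windows closest to their TSS. The windows are not a full set, and shares over all member peaks are given further on.
Mesp1, chr7:86937947-86938146, minus strand: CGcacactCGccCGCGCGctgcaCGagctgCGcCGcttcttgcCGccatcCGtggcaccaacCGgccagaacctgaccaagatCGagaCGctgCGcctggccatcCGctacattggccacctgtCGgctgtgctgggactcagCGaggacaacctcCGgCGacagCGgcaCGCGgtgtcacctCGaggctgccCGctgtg
Mesp2, chr7:86955983-86956182, plus strand: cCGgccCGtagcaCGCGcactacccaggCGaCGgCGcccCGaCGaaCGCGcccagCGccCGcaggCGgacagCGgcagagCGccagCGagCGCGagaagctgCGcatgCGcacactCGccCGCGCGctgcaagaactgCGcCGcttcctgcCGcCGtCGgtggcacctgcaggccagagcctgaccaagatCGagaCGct
Scx, chr15:76291891-76292090, plus strand: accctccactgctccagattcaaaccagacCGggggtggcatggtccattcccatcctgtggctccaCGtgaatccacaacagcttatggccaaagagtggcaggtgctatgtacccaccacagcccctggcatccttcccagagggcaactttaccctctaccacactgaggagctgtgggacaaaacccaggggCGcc
Tal1, chr4:114735849-114736048, plus strand: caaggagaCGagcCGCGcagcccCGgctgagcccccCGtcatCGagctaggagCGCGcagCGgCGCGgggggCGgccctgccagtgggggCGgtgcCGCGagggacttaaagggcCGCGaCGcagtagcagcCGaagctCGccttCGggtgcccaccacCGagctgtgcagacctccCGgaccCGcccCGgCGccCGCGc
Bhlhe23, chr2:180511137-180511336, minus strand: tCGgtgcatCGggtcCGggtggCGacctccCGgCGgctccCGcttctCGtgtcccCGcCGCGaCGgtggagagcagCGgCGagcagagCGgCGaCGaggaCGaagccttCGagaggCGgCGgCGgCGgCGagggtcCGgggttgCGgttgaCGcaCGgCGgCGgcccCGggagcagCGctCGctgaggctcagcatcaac
Olig1, chr16:91270402-91270601, plus strand: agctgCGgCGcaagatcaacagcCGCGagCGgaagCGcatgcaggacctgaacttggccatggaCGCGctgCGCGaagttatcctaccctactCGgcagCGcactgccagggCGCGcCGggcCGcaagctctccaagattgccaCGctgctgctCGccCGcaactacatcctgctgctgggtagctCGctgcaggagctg

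In 5 of the 6 windows every base was annotated coding sequence of the gene itself. These 5 held between 20 and 33 CG dinucleotides each, whereas the Scx window, which lies in an intron of Bop1, held 3. The hexamer CANNTG occurred in 3 windows, as CACCTG in Mesp1 and Mesp2 and as CACGTG and CAGGTG in the intronic Scx window. TAAT occurred in none of the 6 shown. Relatedness within the family was visible in the sequences, since the Mesp1 and Mesp2 windows shared a run of 23 identical bases, cgcacactcgcccgcgcgctgca. The longest run between any other of the 15 window pairs was 10 bases.

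An assigned peak was present for 11 of 16 mesodermal genes (68.8%, interval 44.4 to 85.8) and 11 of 18 neural genes (61.1%, interval 38.6 to 79.7), beside 39.0% of protein-coding genes. Across all members the share was 28 of 42 (66.7%, interval 51.6 to 79.0). The mesodermal share exceeded the neural share by 7.64 percentage points with an interval from -23.0 to 35.9 (Newcombe), which included 0. Gene surroundings differ in size, which bears on assignment to the closest TSS. The stretch of genome closer to the TSS of a gene than to any other protein-coding TSS had a median of 81.7 kb for the members, 54.7 kb for the mesodermal and 86.8 kb for the neural class, beside 47.5 kb for protein-coding genes. The part of this in the shares was not tested.

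With assigned peaks near the genes only, the classes stood further apart than with any assigned peak, but the interval of the difference still included 0. The difference was of like size, 20.8 percentage points (interval -8.22 to 45.5), when any peak within 50 kb of the TSS was counted, whatever its assignment. A peak within 10 kb was assigned to 10 of 16 mesodermal genes (62.5%, interval 38.6 to 81.5) and 7 of 18 neural genes (38.9%, interval 20.3 to 61.4), beside a background of 28.3%, a difference of 23.6 percentage points (interval -9.18 to 50.2). Within 1 kb the counts were 7 of 16 (43.8%) and 4 of 18 (22.2%), beside 24.2%, so the neural share lay near the background. Peaks at single-copy sequence, defined below, were present for 10 of 16 and 7 of 18, beside 28.7%. At least 2 peaks were assigned to 4 of 16 and 3 of 18, beside 11.0%. The mean number of peaks per gene was 1.0 ± 0.894 (SD, n = 16) for the mesodermal class, 0.833 ± 0.857 (SD, n = 18) for the neural class and 0.581 ± 0.974 (SD, n = 21031) for protein-coding genes.

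**Figure D1:**
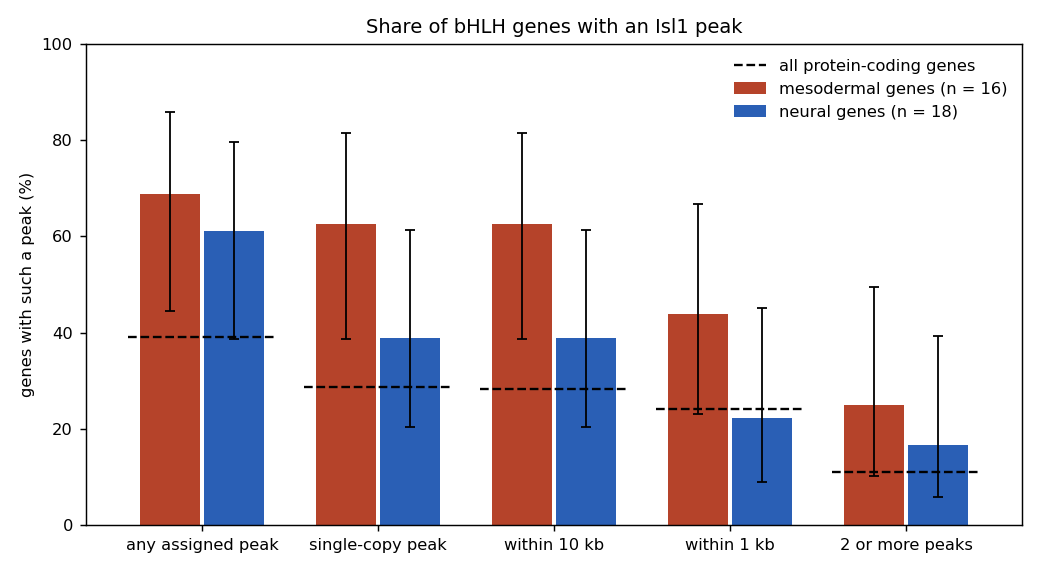
Share of mesodermal (n = 16) and neural (n = 18) bHLH genes with an Isl1 peak of each kind, in percent, with 95% Wilson intervals as error bars; dashed lines give the share of all protein-coding genes. Mesodermal bars stand above the dashed line in each of the 5 kinds, and the neural bar lies just below it for peaks within 1 kb (22.2% beside 24.2%).

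Peaks within 1 kb were found for 7 of the 10 genes of heart and early mesoderm (interval 39.7 to 89.2%), beside 24.2% of protein-coding genes. The group also holds somite, tendon and mesenchyme factors. These 7 were all the mesodermal genes with such a peak, since 0 of 2 blood and 0 of 4 skeletal muscle genes had one. For the whole mesodermal class the share was 43.8% (interval 23.1 to 66.8). Mesp1 and Mesp2, neighbours on chromosome 7 that act in cardiac mesoderm and somites, carried a peak each, at chr7:86937566-86938526 (430 bp downstream of the TSS) and chr7:86955580-86956585 (469 bp downstream). The midpoints of these peaks were 18036 bp apart. Hand2, a regulator of the right ventricle and outflow tract, had a peak 936 bp downstream of its TSS at chr8:59800087-59801346, with its midpoint in a coding exon. Its relative Hand1 had none, and the closest peak of the list lay 30834 bp from the Hand1 TSS and was assigned to Sap30l. The stretch closest to the Hand2 TSS was also far longer, 452.0 kb against 18.1 kb for Hand1, and whether this bears on the contrast was not tested.

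The somite and tendon factors showed the same placement. Tcf15 (paraxis), which shapes somites, had a peak 203 bp downstream at chr2:151969058-151970038, and Scx (scleraxis), a tendon and valve factor, had peaks 393 bp downstream at chr15:76287618-76288905 and 4122 bp downstream at chr15:76291411-76292570. The latter lay in an intron of Bop1. Twist1 and Twist2, which act in mesenchyme, had peaks centred 226 bp downstream and 22 bp upstream of the TSS, at chr12:34642021-34643504 and chr1:93697418-93698615. An additional Twist1 peak, at chr12:34751666-34752769, lay 109681 bp away in an intron of Hdac9, and the middle of it was repeated sequence.

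Tcf21, a factor of the epicardium, differed from this pattern. Its peaks, at chr10:22522707-22523638 and chr10:22556235-22556686, lay 16762 bp downstream and 16526 bp upstream, and their centres consisted of words found a median of 437.5 and 1462 times in the genome. Msgn1, a presomitic mesoderm factor, had no assigned peak. The closest to it lay 21093 bp away, was assigned to 9530020I12Rik and was also at multi-copy sequence.

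Of the blood factors, both Tal1 and Lyl1 had peaks (2 of 2, beside 39.0% of protein-coding genes), all of them farther than 1 kb from the TSS. The Tal1 peak at chr4:114735516-114736380 lay 5532 bp downstream with its midpoint in a coding exon. Lyl1 had 3 peaks, at chr8:87228890-87229898, chr8:87230451-87231179 and chr8:87239621-87240244, with distances of 4038, 5459 and 14576 bp. All 3 midpoints lay inside Nfix, and by the GENCODE annotation of the same assembly the closest protein-coding TSS was that of Nfix for each.

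Of the 4 skeletal muscle factors, 1 had a peak (25.0%, beside 39.0% of protein-coding genes). Only Myog, which drives myoblast fusion, was named in the list, for a peak at chr1:136195285-136196068 that lay 9095 bp downstream, in a coding exon of Ppfia4. Myod1, Myf5 and Myf6 had none. The peak closest to the Myod1 TSS was 20777 bp away and assigned to Kcnc1, while Myf5 and Myf6, which are adjacent, had the same closest peak at 119313 and 127908 bp, assigned to Lin7a.

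**Figure D2:**
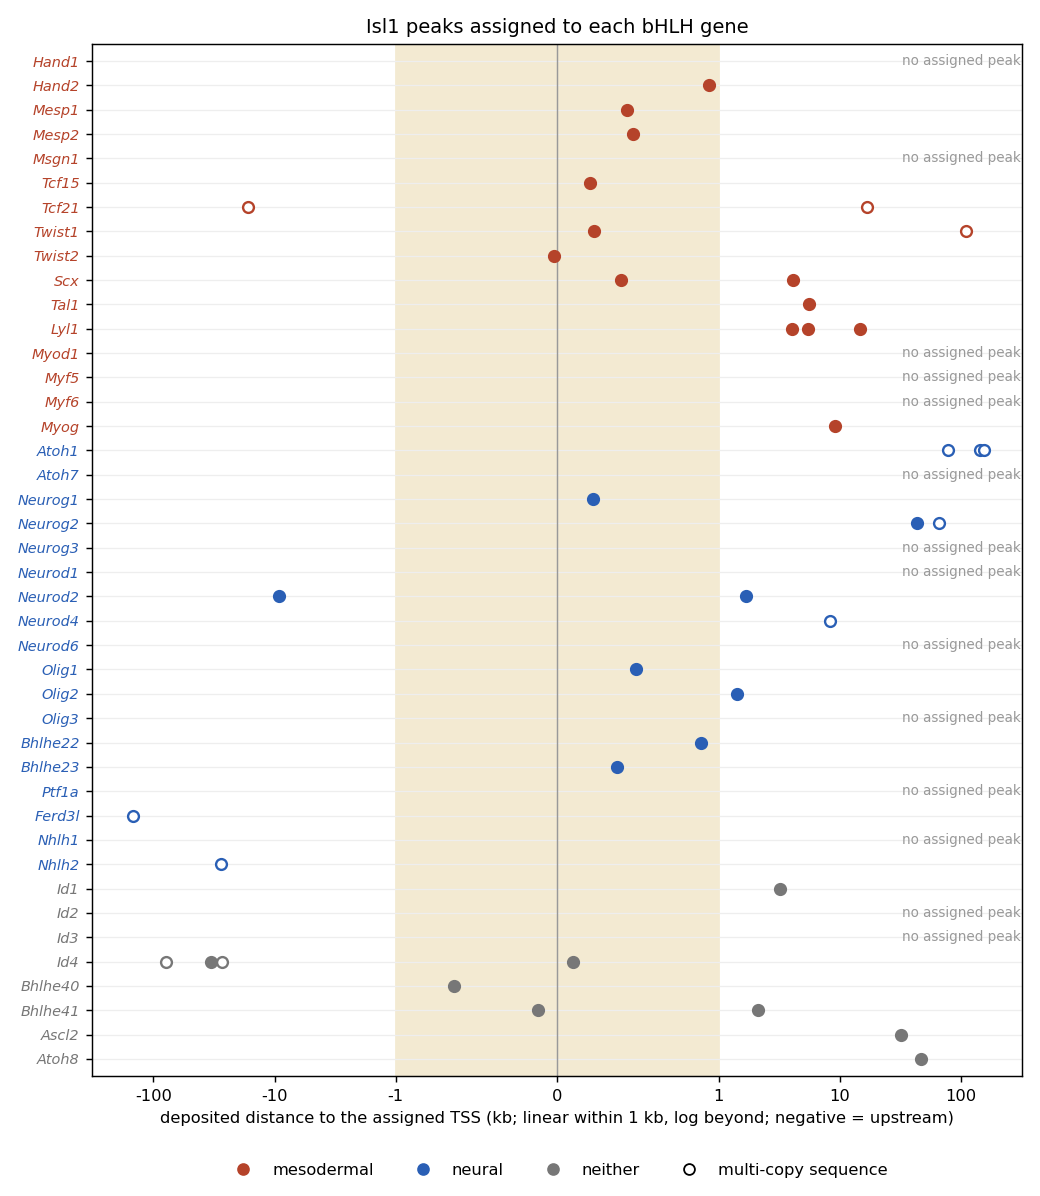
Signed distance from each of the 41 assigned peaks to its TSS in kb (horizontal axis, linear within 1 kb and logarithmic beyond) for the 42 bHLH genes (rows), coloured by class; open circles are peaks at multi-copy sequence and the shaded band marks 1 kb. The 14 peaks in the band are all at single-copy sequence, and 11 of them lie downstream of the TSS.

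Among the 9 atonal, neurogenin and NeuroD genes, 5 had a peak (55.6%, beside 39.0% of protein-coding genes) and 1 had it within 1 kb (11.1%, beside 24.2%). That gene was Neurog1, a proneural factor of sensory ganglia, with a peak 221 bp downstream at chr13:56352589-56354018. Neurod2, which acts in cortical neurons, carried the widest peak of all members, 2448 bp at chr11:98188054-98190502, centred 1681 bp downstream in coding sequence, and a peak 9182 bp upstream at chr11:98199702-98200580. Neurog2, proneural in cortex and spinal cord, had peaks 43351 and 65170 bp downstream at chr3:127379099-127379729 and chr3:127400702-127401764, both in introns of Alpk1, of which the farther was at multi-copy sequence (median 3 copies).

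The peaks of Atoh1 and Neurod4 were all at multi-copy sequence. Atoh1, required for hair cells and cerebellar granule cells, had 3 intergenic peaks, at chr6:64756118-64756946, chr6:64822494-64823260 and chr6:64831225-64832735, between 77392 and 152840 bp downstream. The Neurod4 peak at chr10:129708679-129709184 lay 8263 bp downstream, and the words of its centre occurred a median of 18166 times. Atoh7, Neurog3, Neurod1 and Neurod6 had no assigned peak, and the closest peaks lay 76483, 22175, 178796 and 229035 bp from their TSSs, assigned to Hnrnph3, Fam241b, Itprid2 and Adcyap1r1.

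Of the 5 Olig genes and their relatives, 4 had a peak (80.0%, beside 39.0% of protein-coding genes). It lay within 1 kb for 3 of 5 (60.0%, interval 23.1 to 88.2), beside 24.2%. Placement was like that in the heart and early mesoderm group, but it rests on few genes. Olig1 and Olig2, oligodendrocyte and motor neuron factors that lie side by side, had peaks 487 and 1422 bp downstream, at chr16:91269697-91271306 and chr16:91226497-91227937, with midpoints 43284 bp apart. Bhlhe22 and Bhlhe23, which act in retinal and other neurons, had peaks 892 and 369 bp downstream, at chr3:17954414-17956021 and chr2:180510579-180511894. All 4 midpoints were in coding exons, beside 13.7% of all peaks. Olig3 had none, and its closest peak was 543517 bp away, the farthest for any member, assigned to 4930444F02Rik and at multi-copy sequence.

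Of the last 4 neural genes, 2 had a peak (50.0%, beside 39.0% of protein-coding genes). Ferd3l and Nhlh2 had a peak each, both at multi-copy sequence and far from the TSS. The Ferd3l peak lay 147519 bp upstream at chr12:34465449-34466094, and the Nhlh2 peak lay 27665 bp upstream at chr3:101786163-101786644. Ferd3l is a neighbour of Twist1, and the promoter peak of Twist1 was closer to the Ferd3l TSS, at 29472 bp, than the peak assigned to Ferd3l. Ptf1a, which acts in pancreas and inhibitory neurons, and Nhlh1 had none, with the closest peaks at 136094 bp (assigned to 4921504E06Rik) and 30438 bp (assigned to Vangl2).

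The Id inhibitors were uneven, with a peak for 2 of 4 (50.0%, beside 39.0% of protein-coding genes). Id4 had 4 peaks, the most of any member, of which that at chr13:48356037-48357748 lay 96 bp downstream in coding sequence and was 1711 bp wide. The other Id4 peaks, at chr13:48277498-48278254, chr13:48322798-48323629 and chr13:48329082-48329810, lay 78920, 33583 and 27350 bp upstream in an intron of A330033J07Rik. The farthest and the closest of these were at multi-copy sequence (median 2 and 205.5 copies). With single-copy peaks only, Id4 had 2 and Lyl1 had 3. Id1 had a peak 3192 bp downstream at chr2:152564753-152565605. Id2 and Id3 had none, and the closest peaks were 264492 and 121929 bp away, assigned to Mboat2 and Eloa.

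Bhlhe40 and Bhlhe41, repressors linked to the circadian clock, both had promoter peaks, beside 24.2% of protein-coding genes with a peak within 1 kb. That of Bhlhe40 was 640 bp upstream at chr6:108609221-108610745, and those of Bhlhe41 were 121 bp upstream at chr6:145813671-145814451 and 2104 bp downstream at chr6:145811230-145812443. Ascl2, a trophoblast and intestinal stem cell factor, and Atoh8 had a distant peak each, at chr7:150123332-150123806 (31600 bp downstream) and chr6:72138967-72139516 (46330 bp downstream). By the annotation, the TSS closest to the Ascl2 peak was that of Th, at 6536 bp.

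Of the 41 peaks, 17 had their midpoint inside the gene they were assigned to, 12 inside a different gene and the others between genes. The closest annotated protein-coding TSS was that of another gene for 6 of 41, namely the 3 peaks of Lyl1, both of Neurog2 and that of Ascl2. For these 6 the assignment depends on the annotation used.

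The share of coding sequence covered by peaks was also measured. Only peaks assigned to the gene itself were counted, so this measure is not independent of assignment to the closest TSS. At least 50% of the coding bases lay under the assigned peaks for 15 of the 28 members with a peak (53.6%), beside 6.06% of the 7282 protein-coding genes with a peak and an annotated coding sequence. Coverage was complete for Twist1, Neurod2, Olig1, Olig2, Bhlhe22, Bhlhe23 and Id4. It was 96.3% for Neurog1, 94.2% for Scx, 90.9% for Mesp1, 87.7% for Tcf15, 85.8% for Twist2, 85.3% for Hand2, 77.8% for Bhlhe41, 69.5% for Mesp2 and 45.2% for Tal1. The other 12 genes had 0% of their coding bases under a peak.

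Gene size bears on this measure. Among genes with a peak within 1 kb, the median coverage was 92.6% for the 14 members and 4.35% for 4577 protein-coding genes, with median coding lengths of 699 and 1653 bp. Restricted to genes whose coding sequence spans at most 2000 bp of the genome, introns included, the medians were 96.3% for 11 members and 59.5% for 332 protein-coding genes. In this restricted set all 11 members and 54.8% of the protein-coding genes reached 50% coverage. The difference between the members and the larger sets is thus smaller when compact genes are compared, and what remains was not tested.

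**Figure D3:**
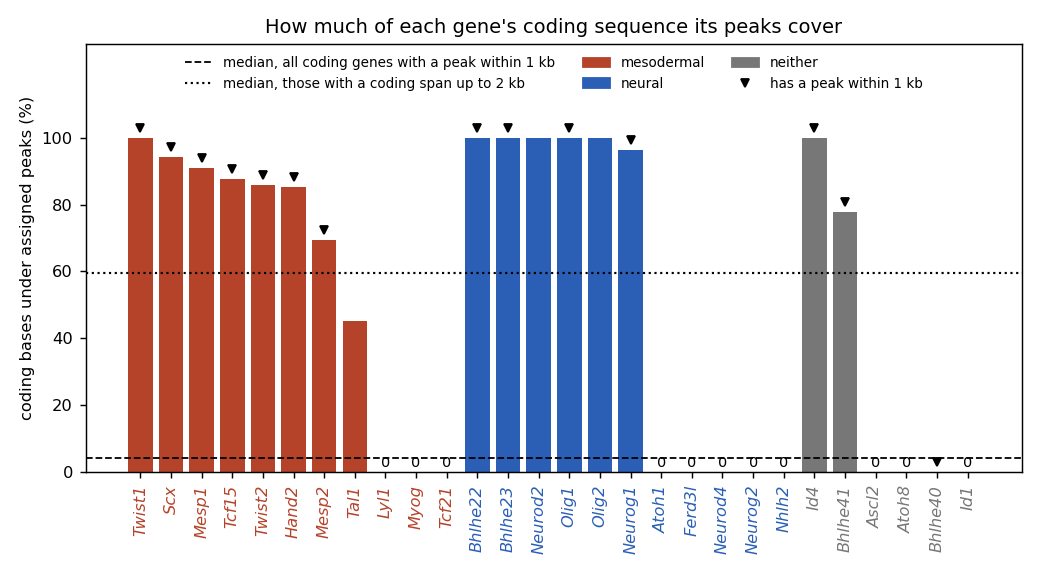
Percent of the annotated coding bases of each gene that lie under its assigned Isl1 peaks, for the 28 bHLH genes with a peak, coloured by class; triangles mark genes with a peak within 1 kb, and lines give medians over protein-coding genes with such a peak. Bars reach 69.5% or more for 15 genes, above both the dashed line (4.35%) and the dotted line (59.5%), that of Tal1 lies between the lines at 45.2%, and 12 genes are at 0.

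The midpoints give a second view of the same peaks and genes, so they are not separate evidence. Of the 14 member peaks within 1 kb, 9 (64.3%, interval 38.8 to 83.7) were centred in a coding exon, beside 24.0% of the 5416 peaks of the list within 1 kb. The median distance from the TSS was also larger for the members, 381 bp beside 178 bp. No comparison with compact genes was made for midpoints, and the part of gene size and distance in this share was not tested. Downstream of the TSS lay 11 of the 14 (78.6%), beside 81.0% of those peaks, so the side was like that of other promoter peaks. Their median width was 1301 bp (range 780 to 1711), beside 1050 bp, and their median GC content at the centre was 74.5%, beside 74.0%.

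Over all distances, 14 of 41 member peaks were within 1 kb (34.1%, beside 38.5% of all peaks), 11 were between 1 and 10 kb (26.8%, beside 10.5%) and 16 were farther (39.0%, beside 51.1%). The median width was 960 bp (range 451 to 2448) and that of all peaks 947 bp. A further peak lay within 10 kb of 12 of 41 member peaks (29.3%, interval 17.6 to 44.5), beside 12.6% of all peaks. These 12 peaks belonged to Lyl1, Scx, Bhlhe41, Id4, Atoh1 and Neurod2. Neighbouring peaks of the same gene count each other, so the peaks are not independent and the interval is too narrow.

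Copy number was measured because reads from repeated sequence cannot be placed with certainty. A peak was called multi-copy when the 31-base words of its central 200 bp occurred a median of at least 2 times in the genome. This held for 12 of 41 member peaks (29.3%, interval 17.6 to 44.5), beside 46.5% of all peaks. By class it held for 3 of 16 mesodermal peaks (18.8%), 7 of 15 neural peaks (46.7%) and 2 of 10 peaks of neither class. Of the 16 member peaks beyond 10 kb, 11 were multi-copy (68.8%), beside 81.2% of all such peaks, whereas 0 of the 14 within 1 kb were. The genes that rested on multi-copy peaks alone were Tcf21, Atoh1, Neurod4, Ferd3l and Nhlh2, 1 mesodermal and 4 neural. With 75-base words, which need a longer exact copy, 4 of 41 peaks remained multi-copy, beside 28.4% of all peaks, and these were both Tcf21 peaks, the distant Twist1 peak and that of Neurod4. By class these were 3 of 16 mesodermal peaks (18.8%) and 1 of 15 neural peaks (6.67%). The higher neural share was thus seen with 31-base words only. Of the genes that rested on multi-copy peaks alone, Tcf21 and Neurod4 remained so with 75-base words.

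Promoter composition was compared within 500 bp on either side of the annotated TSS. The 14 members with a peak within 1 kb had a median GC content of 64.7% and a median CpG ratio (observed over expected) of 0.798, against 56.0% and 0.508 for the 28 members without such a peak. Protein-coding genes gave a like contrast, 64.2% and 0.80 with a peak and 53.0% and 0.433 without. The ranges of the members overlapped, from 53.7 to 72.3% GC with a peak and from 41.9 to 65.4% without. Mesp1 had a promoter peak at a CpG ratio of 0.412, whereas Ptf1a and Neurog2 had none at 0.730 and 0.844. The 4 lowest ratios, those of Nhlh1 (0.0699), Neurod4 (0.200), Neurod6 (0.206) and Nhlh2 (0.211), all belonged to neural genes without a promoter peak. As a class, however, neural genes had the higher median ratio, 0.67 against 0.495 for mesodermal genes. Among genes without a peak within 1 kb the medians were 0.512 and 0.397.

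**Figure D4:**
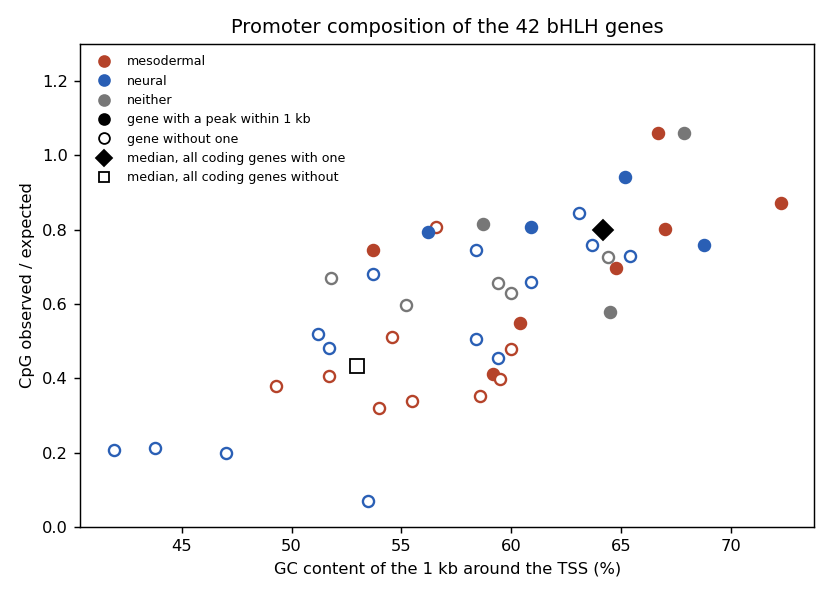
GC content in percent and CpG observed over expected of the 1 kb around the TSS for the 42 bHLH genes, coloured by class and filled where a peak lies within 1 kb; the diamond and the square are medians of protein-coding genes with and without such a peak. Filled circles lie between 53.7 and 72.3% GC and overlap with the open ones, which extend down to 41.9%.

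Strings were searched on both strands in each peak and its central 200 bp. The E-box CANNTG occurred in the centre of 15 of 41 member peaks (36.6%), beside 42.1% of all peaks, and somewhere in the peak for 38 of 41 (92.7%), beside 91.9%. CATCTG, an E-box favoured by several neural and mesodermal bHLH factors, occurred in 2 centres, beside 4.28%, and in 16 whole peaks (39.0%), beside 37.4%. This string is contained in CANNTG, so the counts overlap.

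The homeodomain core TAAT occurred in 4 of 41 centres (9.76%), beside 19.4% of all peaks, and all 4 were at multi-copy sequence, in peaks of Tcf21, Twist1, Atoh1 and Ferd3l. Among the 14 peaks within 1 kb the count was 0, for which the Wilson interval extends to 21.5%, beside 5.87% of all peaks within 1 kb. In whole peaks TAAT was present in 29 of 41 (70.7%), beside 73.8%, and the peak 9182 bp upstream of Neurod2 held the most, 10. CTAATG, a longer string bound by LIM-homeodomain factors, was found in 0 of 41 centres (Wilson interval up to 8.57%), beside 0.632%, and in 4 whole peaks (9.76%, beside 9.44%), those being a Lyl1, a Mesp2, an Atoh1 and the Nhlh2 peak. A match says only that the letters are present.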

How the data were processed

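ChIP-Seq of Isl1 in day 5 CPCs was deposited as 1 peak list for both replicates. According to the methods of the study, the authors aligned reads to mm9 with bowtie2 at its default settings, removed duplicates with Picard (1.136), called peaks with MACS14 without a fragment model, dropped blacklisted regions, intersected the replicates with bedtools (2.15) and named the closest TSS with HOMER. The deposited columns hold chromosome, start, end, distance in bp, accession and symbol. Bowtie2 by default keeps a read with several equal matches at a randomly chosen position, which can affect peaks at repeated sequence. Use of the input in peak calling was not given in the sources used here, and starts are uncertain by 1 bp.

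Identical lines were counted once (14165 lines, 14082 peaks). Names came from a RefSeq table, and gene models and sequence from GENCODE M1 and NCBI m37, which is mm9. Of the 9313 names in the list, 9292 matched. Python 3.11.15, numpy 2.4.6, pandas 2.3.3 and pysam 0.24.0 were used. The word counter recovered planted copy numbers in simulated sequence. The members and the lists of related genes were chosen with earlier results of these data known, so shares are described beside all protein-coding genes, without a test. Every member and assigned peak was named by rule. A further bHLH gene and some peak sequences are not reported here. Alternative distance, width, copy number, assignment and class settings were tried.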

Additional observations from a re-analysis of the deposited data

How the results depend on the processing

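The 8 summary values were recomputed under 53 alternatives, of which 43 stayed within the 95% interval of the reported value and 10 left it. The intervals of the class shares are wide, so staying within them does not show that a value is stable. The neural share of 61.1%, for example, fell to 38.9% with only single-copy peaks and stayed within its interval (38.6 to 79.7). No paired analysis was possible because the list holds both replicates together, and for the same reason no replicate could be left out. With only peaks within 1 kb, the share with a peak was 43.8% of mesodermal, 22.2% of neural and 33.3% of all members, and with only peaks within 10 kb it was 50.0% of all members. Requiring at least 2 peaks gave 25.0%, 16.7% and 21.4%. Counting any peak within 50 kb gave 87.5% of mesodermal, 66.7% of neural and 76.2% of all members. Counted the other way, 2 of 16 mesodermal, 6 of 18 neural and 10 of 42 members had no peak within 50 kb of the TSS. The share without one was 39.1% of 18118 protein-coding genes. With 75-base words 9.76% of member peaks were multi-copy, and over whole peaks the median GC content was 63.0%, since peak centres are richer in GC than their flanks. The mesodermal share minus the neural share was above 0 in 11 of its 12 alternatives and 0.0 percentage points without Neurog3 and Ptf1a, and its interval excluded 0 in none of the 12. Depth is unknown, so peaks under the cutoff in either replicate are not seen, and 1 combined list gives no error between replicates.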

Other observations

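The partners and relatives of these factors were also named in the list. An assigned peak was present for 15 of 22 further bHLH genes (68.2%, Wilson interval 47.3 to 83.6), beside 39.0% of protein-coding genes, and for 9 of 22 it lay within 1 kb (40.9%), beside 24.2%. The E proteins, the common dimer partners, were the most complete group. Tcf3, Tcf4 and Tcf12 each had a peak within 1 kb, with the closest assigned at 242, 184 and 248 bp, and Tcf4 and Tcf12 had 3 peaks each.

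Of 10 Hes and Hey genes, which include repressors that act under Notch signalling, 9 had an assigned peak, beside 39.0% of protein-coding genes, and only Hes2 had none. Hes5, Hes6 and Hey1 had it within 1 kb, at 389, 302 and 313 bp. The closest assigned peaks of Hes1, Hes3, Hes7 and Heyl lay at deposited distances of 1381, 8408, 2203 and 6286 bp. By the annotation, however, the Hes1 peak covered the Hes1 TSS, with its midpoint 408 bp away. The Heyl peak lay 85 bp from an annotated Heyl TSS. The Hes3 peak lay in a coding exon of Gpr153, and the closest annotated TSS was that of Gpr153, at 884 bp. The peaks assigned to Hey2 and Helt lay at 212501 and 40135 bp, both at multi-copy sequence, and a single-copy peak assigned to Ncoa7 was closer to the Hey2 TSS, at 39781 bp. Among 9 other tissue-specific bHLH genes, 3 had an assigned peak (33.3%, near the share of all protein-coding genes), namely Ascl4 at 287 bp, Tcf24 at 184 bp and Msc at 473 bp. Ascl3, Tal2, Tcf23, Bhlha15, Bhlha9 and Figla had none.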
